A study of Homo sapiens with 4 samples.

Results

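BAMBI, THBS1 and 8 further genes of TGF-beta and BMP feedback were followed in prostate cancer cells that had been given exosomes of another prostate cancer line. The 10 genes, BAMBI, THBS1, SMAD6, SMAD7, ID1, ID2, ID3, SKIL, TGFBR1 and TGFBR2, were chosen by name, on measured log2 differences between the exosome and PBS arrays of these same data together with known roles in the pathway. Those values are therefore given as a description, and where the fit over all genes or probe sets counts members past its threshold, the count is no evidence for them. All 10 were measured, by 28 probe sets that each name a single gene, out of 44988 such probe sets for 18132 genes. A probe set is a group of short probes on the array that reads out 1 transcript or a few related ones.

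The data were 4 Affymetrix arrays of LNCAP, the androgen-responsive prostate cancer line usually written LNCaP. In 2 arrays the cells had received exosomes, small vesicles shed by cells, from PC-3, an androgen-independent line derived from a bone metastasis of prostate cancer. In the other 2 arrays the cells had received PBS, a buffer, and the labels give their agent as none. All cells were grown in RPMI-1640 with fetal bovine serum, which itself can carry growth factors of this family, and no dose, exposure time or genotype is given for either group. Nothing in the labels ties the arrays to separate cultures, so p-values measure the spread between these arrays, which may be technical. On arrays of bulk RNA, fewer cells of a type and less RNA per cell cannot be told apart.

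TGF-beta and BMP ligands bind paired type I and type II receptor kinases, which phosphorylate SMAD proteins that then enter the nucleus. The pathway restrains itself by inducing its own inhibitors: the inhibitory SMADs, the pseudoreceptor BAMBI and the corepressor SKIL, while the ID genes are among the best known direct BMP targets. In the prostate epithelium TGF-beta is known to restrain growth, and LNCAP is commonly described as responding poorly to it.

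Of the 10 genes, BAMBI and THBS1 were higher after PC-3 exosomes and the other 8 lay close to their PBS values. By the brightest probe set of each gene, BAMBI was 1.94-fold higher and THBS1 1.36-fold higher. The log2 fold changes of the 8 others then ran no further from 0 than 0.15. Over all their probe sets the 8 others ran from -0.15 to 0.26, and THBS1 ran from 0.10 to 0.45. In the fit over all genes, 2 of the 10 were past the threshold as higher, an adjusted p under 0.05 by limma with Benjamini-Hochberg adjustment, and 0 as lower. Of all genes 0.7% were past it as higher and 0.188% as lower, and nothing is read from the members' count, since this same comparison chose them. The median log2 fold change was -0.03 over the 10 genes and -0.01 over all 18132.

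**Figure D1:**
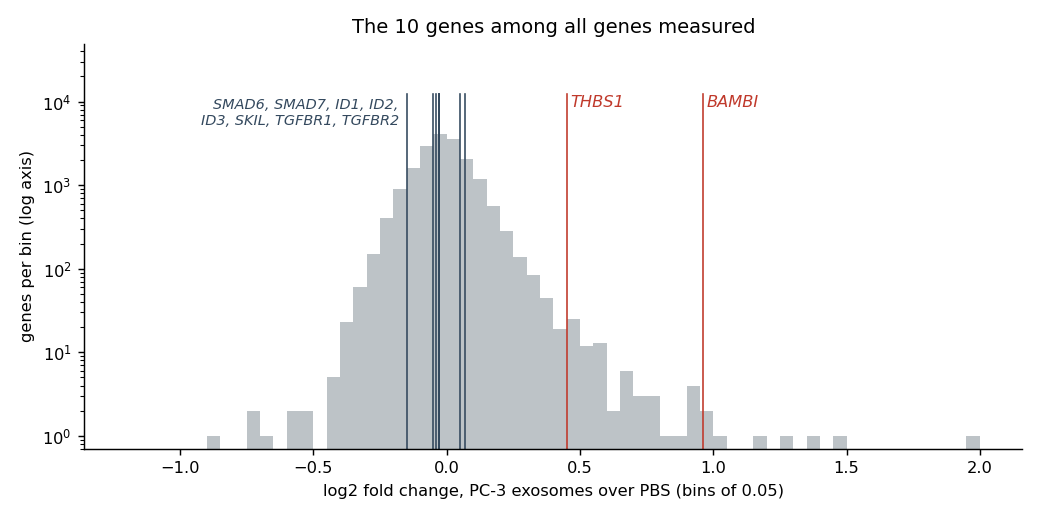
Log2 fold changes of all 18132 genes in bins of 0.05 (grey, number of genes on a log axis), with a vertical line at each of the 10 genes. BAMBI at 0.96 and THBS1 at 0.45 stand in the upper tail, and the 8 others lie between -0.15 and 0.07.

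The stretches just before the annotated starts of BAMBI and THBS1, the genes that were higher, are shown with those of SMAD6 and ID1, an inhibitor and a classic BMP target that lay near their PBS values. Each is the 250 bases before the start in RefSeq's GRCh38.p14 annotation, written 5′ to 3′ along the gene's strand. Capitals mark motifs that were searched for on both strands. The letters GTCTAGAC are the palindrome bound by SMAD3 and SMAD4, and GGCGCC is a GC-rich element bound by BMP-activated SMADs. The cAMP response element was searched as TGACGTCA and the AP-1 site as TGACTCA. The TATA box was searched as TATAAA, and the CCAAT box by the letters of its name.
BAMBI, chr10:28677271-28677520, plus strand: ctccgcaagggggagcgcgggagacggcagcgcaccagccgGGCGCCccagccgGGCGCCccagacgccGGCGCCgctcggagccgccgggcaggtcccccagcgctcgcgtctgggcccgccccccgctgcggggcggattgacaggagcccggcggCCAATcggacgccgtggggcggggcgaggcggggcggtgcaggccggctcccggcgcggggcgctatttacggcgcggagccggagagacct
THBS1, chr15:39580829-39581078, plus strand: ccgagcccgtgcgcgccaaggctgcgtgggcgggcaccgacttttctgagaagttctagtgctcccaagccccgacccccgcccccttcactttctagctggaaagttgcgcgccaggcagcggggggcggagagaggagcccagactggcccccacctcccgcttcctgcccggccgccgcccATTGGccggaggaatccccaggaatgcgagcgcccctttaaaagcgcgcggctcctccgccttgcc
SMAD6, chr15:66701986-66702235, plus strand: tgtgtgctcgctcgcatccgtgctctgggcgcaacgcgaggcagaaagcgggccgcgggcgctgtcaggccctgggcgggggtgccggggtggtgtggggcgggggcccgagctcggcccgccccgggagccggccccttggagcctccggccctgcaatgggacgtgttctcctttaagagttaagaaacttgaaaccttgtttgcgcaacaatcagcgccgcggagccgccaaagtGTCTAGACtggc
ID1, chr20:31605039-31605288, plus strand: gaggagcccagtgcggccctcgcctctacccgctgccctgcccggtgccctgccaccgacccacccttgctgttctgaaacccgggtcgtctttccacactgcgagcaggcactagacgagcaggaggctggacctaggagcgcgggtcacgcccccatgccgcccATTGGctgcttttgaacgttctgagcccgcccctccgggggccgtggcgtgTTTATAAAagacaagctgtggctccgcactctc

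The BAMBI stretch held GGCGCC at 3 places, starting 209, 196 and 181 bases before the start. It also held a CCAAT box 92 bases before the start. GGCGCC occurred in 16.4% of the 35116 windows of this length in the RefSeq table and at 3 or more places in 0.527% of them. The BAMBI stretch was 81.2% G and C, against a median of 58.0% over all windows, and a GC-rich motif meets more chances in such sequence. Among the 10 genes GGCGCC was also present before starts of SKIL and TGFBR1, whose stretches are not shown. It began 190 bases before a start of SKIL, and 161 and 133 bases before a start of TGFBR1. SKIL and TGFBR1 lay near their PBS values, at log2 fold changes of -0.05 and 0.07 in their brightest probe sets. The SMAD palindrome GTCTAGAC was found in SMAD6, 12 bases before its start, and in 0.182% of all windows. The THBS1 stretch held a CCAAT box alone, read on the opposite strand, a motif found in 32% of all windows. ID1 held a CCAAT box on the opposite strand and a TATA box on both strands in overlapping letters, and 10.7% of all windows held a TATA box. The AP-1 letters were in none of the 20 windows of the 10 genes (4.2% of all windows), and the cAMP response element was found in SKIL alone of the 10 (1.65% of all). A match is a run of letters and was not tested as a binding site.

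THBS1 encodes thrombospondin-1, a secreted matrix glycoprotein that can release active TGF-beta from its latent complex. Its brightest probe set read 635 and 725 in the PC-3 exosome arrays, against 476 and 520 in the PBS arrays. Both exosome arrays were above both PBS arrays. The means were 680 ± 64.0 after exosomes and 498 ± 31.2 with PBS (SD, n = 2 each), a log2 fold change of 0.45 (SE 0.077).

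Of the other 4 THBS1 probe sets, 1 read 144 and 181 after exosomes, against 114 and 127 with PBS. Another read 127 and 148 after exosomes, against 101 and 104 with PBS. These 2 gave log2 fold changes of 0.42 (SE 0.120) and 0.42 (SE 0.096), close to that of the brightest. The remaining 2 differed less. One of them read 71.5 and 72.0 after exosomes, against 65.3 and 68.5 with PBS, a log2 fold change of 0.10 (SE 0.085). The dimmest read 47.0 and 51.6 after exosomes and 47.6 and 41.6 with PBS, so its groups overlapped, at 0.14 (SE 0.102). All 5 were above 0.

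The size of the THBS1 difference depended on how probe sets and arrays were taken. Averaging its 5 probe sets gave 0.31. With an array left out it ran from 0.35 without exosome replicate 2 to 0.54 without exosome replicate 1.

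BAMBI encodes a transmembrane protein that resembles a type I receptor but has no kinase domain, and it dampens signalling by joining the receptor complex. It had a single probe set, which read 1068 and 1028 in the PC-3 exosome arrays, against 525 and 554 in the PBS arrays. The lower exosome array was well above the higher PBS array. The means were 1048 ± 28.9 after exosomes and 540 ± 20.1 with PBS (SD, n = 2 each), a log2 fold change of 0.96 (SE 0.056). By size this was the 8th highest of 18132 genes. Exosome replicate 1 exceeded PBS replicate 1 by 1.02 on the log2 scale, and exosome replicate 2 exceeded PBS replicate 2 by 0.89. With an array left out the value lay between 0.92 and 0.99. No second probe set was at hand for BAMBI in this annotation, so its difference could not be compared across probe sets.

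TGFBR1, the type I receptor kinase that phosphorylates SMAD2 and SMAD3, read 546 and 554 after exosomes and 547 and 503 with PBS in its brightest probe set. The groups overlapped, and the log2 fold change was 0.07 (SE 0.063). Its 2 other probe sets were near the median of the 23 background control probe sets, which was 18.7 to 19.5 per array. They read 23.2 and 23.3, and 18.8 and 21.1, after exosomes, against 22.2 and 23.3, and 20.5 and 21.4, with PBS.

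TGFBR2, the type II kinase that binds TGF-beta and activates TGFBR1, gave opposite signs in its 2 probe sets. The brighter read 92.9 and 97.1 after exosomes, against 104 and 107 with PBS, a log2 fold change of -0.15 (SE 0.081). The dimmer read 33.4 and 37.4 after exosomes, against 27.9 and 32.7 with PBS, at 0.22 (SE 0.105). In neither did the groups overlap, and as the mean of both probe sets the difference came to 0.04. No direction is given for TGFBR2.

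**Figure D2:**
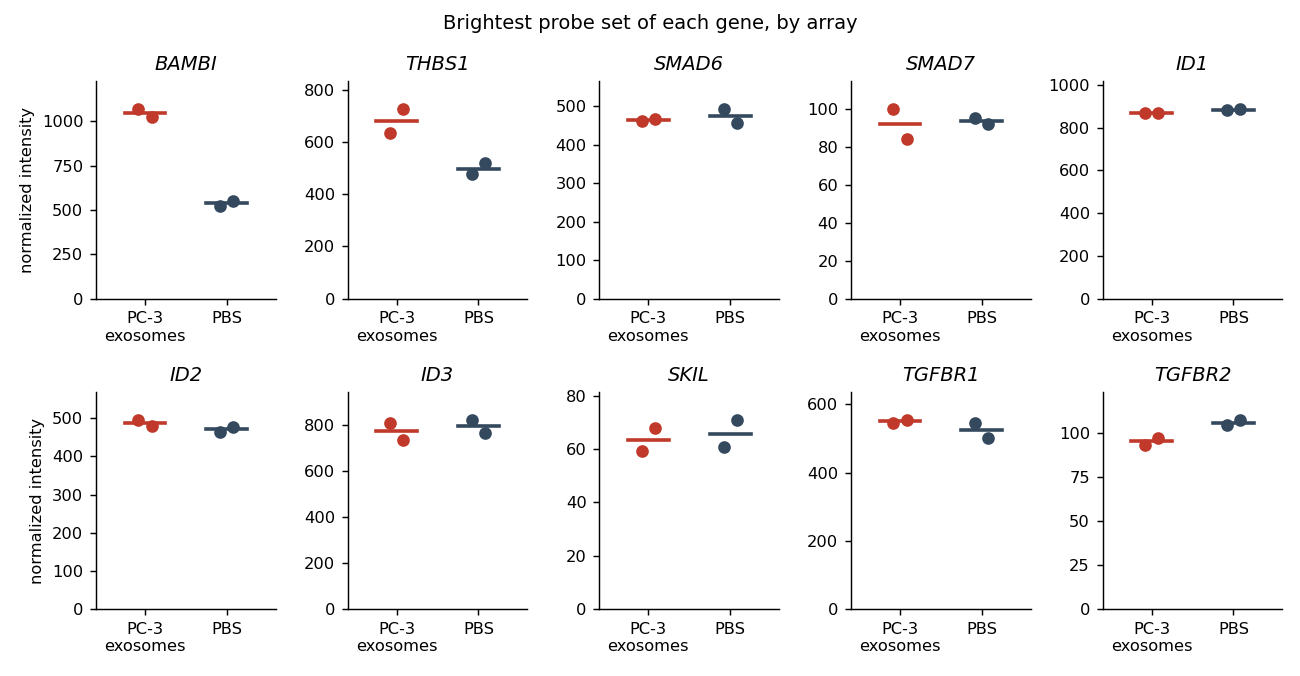
Normalized intensity of the brightest probe set of each of the 10 genes, PC-3 exosome arrays in red and PBS arrays in dark blue (points: arrays, bars: group means, axes from 0). BAMBI and THBS1 show separate groups with a clear gap, the groups overlap in SMAD6, SMAD7, ID3, SKIL and TGFBR1, and ID1, ID2 and TGFBR2 show small gaps.

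SMAD6 and SMAD7 are the inhibitory SMADs, which block receptor access and are themselves induced by BMP and TGF-beta. SMAD6 read 462 and 466 after exosomes and 492 and 458 with PBS, with overlapping groups and a log2 fold change of -0.03 (SE 0.063). Its second probe set read 159 and 155 after exosomes, against 177 and 167 with PBS, at -0.13, and its last one read 157 and 153 after exosomes and 154 and 156 with PBS. SMAD7 read 100 and 84.3 after exosomes and 95.4 and 92.1 with PBS, a log2 fold change of -0.03 (SE 0.099). The exosome arrays of SMAD7 differed from each other by 0.25 on the log2 scale, more than the groups did. Its 3 probe sets ran from -0.10 to -0.03, each with overlapping groups.

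SKIL encodes SnoN, a corepressor of SMAD complexes that TGF-beta first degrades and then induces. It read 59.1 and 67.8 after exosomes and 60.7 and 70.8 with PBS, a log2 fold change of -0.05 (SE 0.107). In both groups the array numbered 2 was the brighter, by log2 differences of 0.19 with exosomes and 0.22 with PBS. A second probe set showed the same order, at 40.5 and 49.4 after exosomes and 44.9 and 53.7 with PBS. The dimmest read 21.1 and 22.4 after exosomes, against 16.9 and 19.2 with PBS, a log2 fold change of 0.26 (SE 0.086) at levels around the median of the background controls. The 3 SKIL probe sets had no common sign.

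ID1, ID2 and ID3 encode helix-loop-helix proteins that lack a DNA-binding region and sequester E proteins. ID1 read 867 and 869 after exosomes, against 884 and 885 with PBS, a log2 fold change of -0.03 (SE 0.050). The arrays of a group were nearly equal here, so the groups were separate although the difference was small. Its 2 other probe sets had the opposite sign, at 0.02 and 0.05. ID2 read 495 and 479 after exosomes, against 464 and 477 with PBS, at 0.05 (SE 0.059), and its second probe set gave 0.04. ID3 read 807 and 734 after exosomes and 819 and 765 with PBS, at -0.04 (SE 0.065), and its other 2 gave -0.02 and -0.05. Over the 8 ID probe sets, which read between 189 and 885, the log2 fold change ran from -0.05 to 0.05 and 4 of the 8 were above 0.

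Of the 28 probe sets, 10 had both exosome arrays above both PBS arrays (35.7%), 3 had both below (10.7%) and 15 overlapped. Over all 44988 probe sets, 17.2% had both exosome arrays above and 20.5% both below. The 10 include the probe set of BAMBI and those of THBS1 except its dimmest. This same comparison chose the members, so nothing is read from their shares. In the limma fit over all probe sets 1 of the 28 was past the threshold as higher, that of BAMBI, as were 0.238% of all. Probe sets whose IDs end in x_at or s_at, which include 1 of 3 for ID1, both of ID2, 2 of 3 for ID3, 1 of 3 for TGFBR1 and both of TGFBR2, can share probes with other transcripts by the maker's naming. How much signal they share was not tested.

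**Figure D3:**
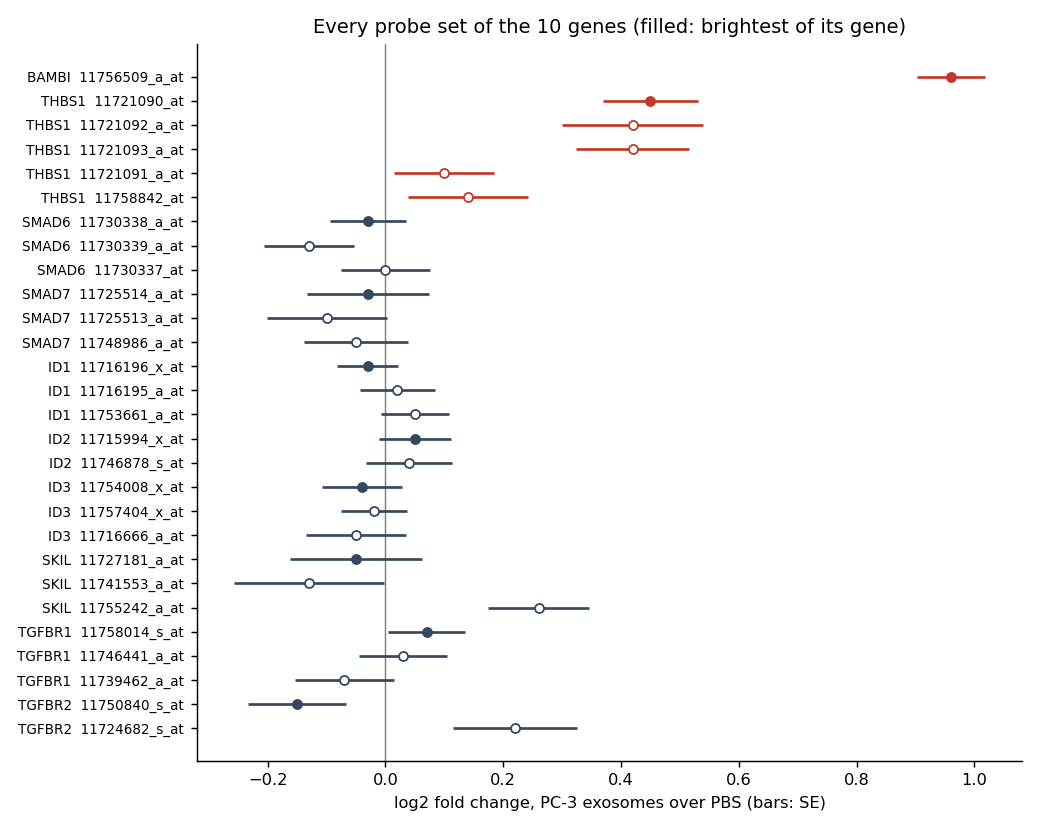
Log2 fold change of each of the 28 probe sets with its SE from the limma fit over all probe sets (red: BAMBI and THBS1; filled: the brightest probe set of its gene). Of the THBS1 probe sets, 3 lie at 0.42 to 0.45, the other 2 at 0.10 and 0.14, and those of SKIL, TGFBR1 and TGFBR2 fall on both sides of 0.

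The spike-ins give another scale. The 24 poly-A spike-in probe sets, control RNAs added to a sample, averaged 0.14 higher on the log2 scale after exosomes. Their means were 6.94 and 7.02 after exosomes and 6.9 and 6.77 with PBS, so the PBS arrays differed about as much as the groups. With each array centred on them the median of all genes became -0.15, and 60 genes were past the threshold as higher and 326 as lower, in place of 127 and 34. Centring shifts every gene of an array by the same amount, so these counts carry that spread between arrays. BAMBI was then at 0.82, THBS1 at 0.31 and the 8 others at -0.29 to -0.07. BAMBI and THBS1 lay above 0 on either scale. ID2 and TGFBR1 changed sign with it.

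The cells' identity was checked on marker genes. The summed intensity of 6 luminal prostate markers, led by KLK3, was 37084 and 37925 after exosomes and 37147 and 37172 with PBS. That of 8 transcripts high in PC-3 was 989 and 1019 after exosomes and 1072 and 1040 with PBS, with 0 of either list past the limma threshold (2 and 1 at an unadjusted p under 0.05). Of the 8 PC-3 transcripts, LGALS1 was lower in both exosome arrays, at 126 and 121, against 143 and 145 with PBS, and the other 7, VIM among them, overlapped between the groups. The part of PC-3 RNA in the values of BAMBI and THBS1 was not tested. The labels' text on RNA extraction speaks of brain, whereas the luminal prostate sum was more than that of the other lists together in every array. The 7 brain markers measured summed to 1756 and 1776 after exosomes and 1649 and 1721 with PBS, with MBP the brightest, and 7 fibroblast and endothelial markers to 566 and 558 after exosomes and 538 and 585 with PBS. By limma 0 of these 14 were past the threshold (2 brain markers at an unadjusted p under 0.05). The brain sum was higher in both exosome arrays, but its genes did not move together. MBP read 867 and 868 after exosomes, against 764 and 764 with PBS. NEFL read 283 and 273 after exosomes, against 304 and 314 with PBS. GFAP and AQP4 also had both exosome arrays above both PBS arrays, SLC17A7 had both below, and SNAP25 and GAD1 overlapped. The part of the brain sum in the result was not tested.

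The other genes of the pathway were taken as 9 lists of 178 genes, of which 171 were measured. In the limma fit over all genes 3 of 171 rose (1.75%, against 0.7% of all genes) and 1 fell (0.585%, against 0.188%). At an unadjusted p under 0.05, 17 were higher (9.94%) and 7 lower (4.09%), against 5.76% and 5.16% of all genes. Their median log2 fold change was -0.02, and 42.7% were above 0, as were 44.0% of all genes.

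Among 30 ligands 1 rose (3.33%, against 0.7% of all genes) and 0 fell (against 0.188%). Unadjusted, 1 was higher and 0 lower, and the median was -0.05. The ligand that rose was GDF15, a distant member of the family that is induced by stress and signals through another receptor, GFRAL. GDF15 read 16078 and 16507 after exosomes, against 13251 and 13379 with PBS, a log2 fold change of 0.29 (SE 0.031, limma adjusted p = 0.0038). Its 5 probe sets ran from 0.03 to 0.30. Against the poly-A spike-ins it came to 0.15 and was not past the threshold, nor was it without exosome replicate 2, PBS replicate 1 or PBS replicate 2. The other 29 ligands, TGFB1, TGFB2, INHBA, BMP2 and BMP7 among them, lay between -0.21 and 0.10.

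Of 16 receptors and co-receptors 0 passed the limma test, with 1 higher and 2 lower when p was left unadjusted. The smallest p were those of HJV, a BMP co-receptor, at -0.30 (SE 0.089, adjusted p = 0.223), and ACVR1B, the activin type I receptor, at 0.17 (SE 0.057, adjusted p = 0.289). The 5 probe sets of ACVR1B ran from -0.06 to 0.17, with 2 of them above 0. Among 21 SMADs and intracellular regulators 0 passed by limma, with 4 higher and 1 lower unadjusted and a median of 0.05. SMAD5, which carries BMP signals, read 1012 and 1044 after exosomes, against 1152 and 1149 with PBS, at -0.16 (SE 0.049, limma adjusted p = 0.236). SMAD2, which carries TGF-beta signals, read 845 and 898 after exosomes, against 780 and 754 with PBS, at 0.18 (SE 0.056, limma adjusted p = 0.242). SMAD2 was above 0 in 7 of 7 probe sets and SMAD5 above 0 in 3 of 5.

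Among 25 extracellular antagonists and activators 0 passed by limma, with 2 higher and 0 lower unadjusted and a median of -0.04. ITGAV, an integrin chain that helps release latent TGF-beta, was at 0.18 (SE 0.056, limma adjusted p = 0.259), and CER1, a secreted BMP and Nodal antagonist, at 0.20 (SE 0.083, adjusted p = 0.404) with values of 35.8 and 34.6 after exosomes and 29.5 and 31.3 with PBS. The 5 probe sets of ITGAV ran from -0.15 to 0.25, with 4 of them above 0. In the thrombospondins and THBS1 receptors 0 of 15 passed by limma, with 1 higher and 0 lower unadjusted. SDC4, a heparan sulfate proteoglycan, was at 0.26 (SE 0.086, limma adjusted p = 0.288) and SDC1, its relative, at 0.09 (SE 0.047, limma adjusted p = 0.516). THBS2, a close relative of THBS1, averaged 21.3 ± 0.989 after exosomes and 22.2 ± 1.19 with PBS (SD, n = 2 each), near the median of the background controls.

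Of 33 genes that TGF-beta is known to induce 0 passed the limma test, while 6 were higher and 1 lower unadjusted, with a median of -0.03. FN1, the matrix protein fibronectin, read 4930 and 5270 after exosomes, against 3750 and 4390 with PBS in its brightest probe set, at 0.33 (SE 0.069, limma adjusted p = 0.077). Its 8 probe sets did not give the same size: 6 of them ran from 0.57 to 0.77 and passed in the limma fit over all probe sets. TPM1, a tropomyosin, was at 0.13 (SE 0.041, limma adjusted p = 0.259). The 9 probe sets of TPM1 ran from -0.20 to 0.32, with 8 of them above 0. PMEPA1 and CCN2 are given here for their known roles, after their values were seen. PMEPA1, a feedback inhibitor, read 3579 and 3580 after exosomes and 3414 and 3165 with PBS (limma adjusted p = 0.356). CCN2, a matricellular target, read 23.5 and 21.6 after exosomes and 24.1 and 21.5 with PBS (limma adjusted p = 0.984). These CCN2 values are near the median of the background controls, where a difference would be hard to see.

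Of 17 genes that BMP is known to induce 2 rose (11.76%, against 0.7% of all genes) and 0 fell (against 0.188%). Unadjusted, 2 were higher and 1 lower, and the median was 0.00. SOX9, a transcription factor of cartilage and of epithelial progenitors, read 143 and 151 after exosomes, against 77.1 and 84.4 with PBS, a log2 fold change of 0.86 (SE 0.086, limma adjusted p = 0.0026). It was past the threshold with each of the 4 arrays left out, at 0.79 to 0.92, and against the poly-A spike-ins, at 0.72. Its 2 other probe sets read 37.4 and 39.1, and 20.3 and 19.3, after exosomes, against 37.8 and 35.8, and 18.9 and 21.1, with PBS, and gave 0.05 and -0.01.

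RUNX2, the transcription factor of bone formation, read 152 and 180 after exosomes, against 113 and 116 with PBS, at 0.53 (SE 0.095, limma adjusted p = 0.045). Its second probe set gave -0.03, and RUNX2 was called by 0 of 4 fits that omitted an array, at 0.40 without exosome replicate 2 to 0.65 without exosome replicate 1, and not against the spike-ins, at 0.39. Both genes are also known to answer to other pathways. ID4, another ID gene named after its values were seen, read 97.1 and 104 after exosomes and 98.5 and 104 with PBS (limma adjusted p = 0.984). In the short list of ID relatives and E proteins 0 of 4 passed by limma, and 0 at an unadjusted p under 0.05 in either direction. TCF3, an E protein that ID proteins bind, was at -0.09 (SE 0.055, limma adjusted p = 0.631) and TCF4 at -0.06 (SE 0.097, limma adjusted p = 0.901). The 11 probe sets of TCF4 ran from -0.11 to 0.19, with 7 of them above 0.

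BAMBI is also known as a target of Wnt and beta-catenin, so 13 genes that this pathway induces were set beside it. Of these 0 rose, against 0.7% of all genes, and 1 fell (7.69%, against 0.188% of all genes). At an unadjusted p under 0.05, 0 were higher and 2 lower. The median was -0.06 and 3 of 13 were above 0, against 44% of all genes. Any part of Wnt signalling in the BAMBI values was not tested. TNFRSF19, a receptor of the TNF family, read 631 and 640 after exosomes, against 822 and 860 with PBS, a log2 fold change of -0.40 (SE 0.055, limma adjusted p = 0.013). Its 3 probe sets ran from -0.40 to -0.08. Against the poly-A spike-ins TNFRSF19 came to -0.54 and was past the threshold. Omitting an array, 0 of 4 fits called it, at -0.44 without PBS replicate 1 to -0.37 without PBS replicate 2.

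**Figure D4:**
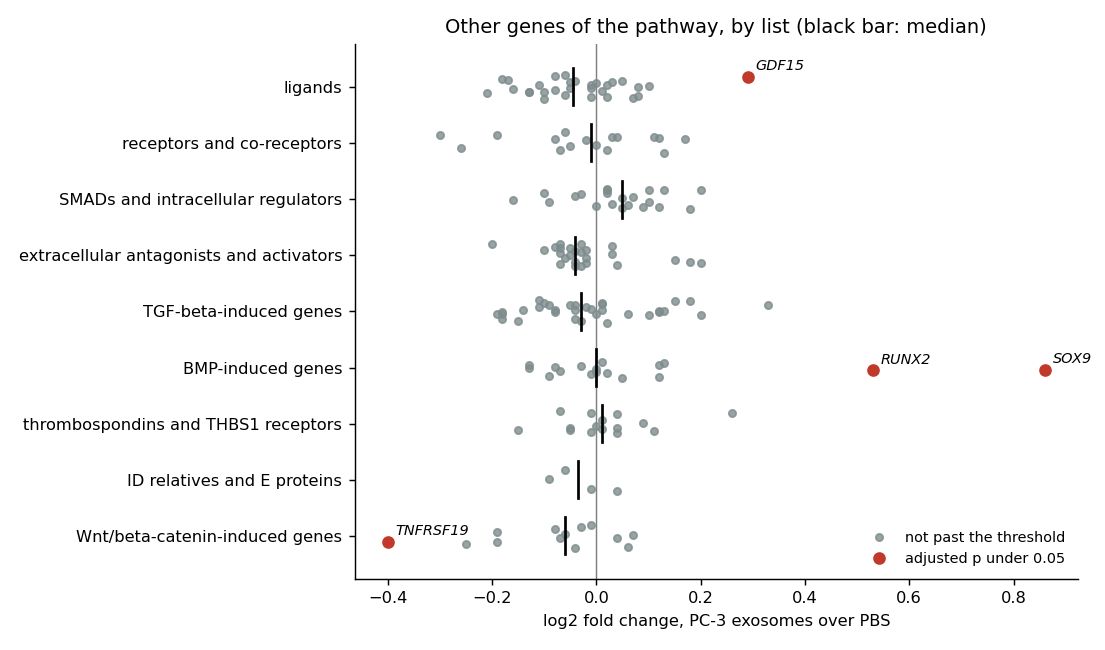
Log2 fold changes of the 171 other pathway genes in 9 lists (points: genes; red: adjusted p under 0.05 in the limma fit over all genes; black bars: list medians). The medians lie between -0.06 and 0.05, and SOX9 at 0.86, RUNX2 at 0.53, GDF15 at 0.29 and TNFRSF19 at -0.40 are past the threshold. The points are spread vertically for legibility only, and 3 genes stand in 2 lists.

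The genes with the most similar values over the 4 arrays were found by the Euclidean distance between log2 values taken relative to the PBS mean, among 8981 other genes at or above the median level. Nearest to BAMBI were LCN2, a siderophore carrier, at a distance of 0.096, and MMP7, the protease matrilysin, at 0.174, followed by ATF3 at 0.292, NIBAN1 at 0.298 and S100P at 0.319. LCN2 read 345 and 358 after exosomes, against 178 and 179 with PBS. Nearest to THBS1 were SAMD12 at 0.075, TLCD4 at 0.103, SLC38A6 at 0.105, SPIRE1 at 0.113 and MIA2 at 0.124. SAMD12 read 273 and 292 after exosomes, against 200 and 221 with PBS. These are the values of brightest probe sets, and the 4 of SAMD12 ran from -0.23 to 0.42. Probe sets of MMP7, ATF3, NIBAN1, SPIRE1 and MIA2 also fell on both sides of 0, and those of TLCD4 were all above 0. LCN2, S100P and SLC38A6 had 1 probe set each. These genes were picked for their likeness over 4 arrays, which is a description and carries no test.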

How the data were processed

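RNA of LNCAP cells was hybridised to 4 Affymetrix arrays, 2 for PC-3 exosomes and 2 for PBS. The deposited values are normalized intensities on a linear scale, 1 per probe set and array. MAS5 and RMA are listed, per the submitters' processing notes, with neither role nor version, and which of them made these values is not given in the sources used here. Gene names are those of GEO's platform annotation. They were compared with RefSeq's symbols by gene ID, which changed the symbol of 0 single-gene probe sets. Array medians were 110.8 to 112.4, so no further normalization was applied. For arrays, their number limits the precision.

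The fits used log2(intensity + 1), which slightly understates the folds of dim probe sets. Of 49395 probe sets, 102 were controls, 1832 named several genes and 2473 none, and these were left out. The probe set with the highest mean stood for each gene. Genes were fitted with limma 3.58.1 in R 4.3.3 (lmFit, eBayes with a trend; exosomes minus PBS, two-sided, adjusted with Benjamini-Hochberg over 18132 genes), and all single-gene probe sets in a second fit. The fit has 2 residual degrees of freedom, and since exact permutation of 2 against 2 arrays reaches no two-sided p under 0.333, each p rests on the variance model.

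The members, lists and tests were chosen with earlier results of these data known. Every member is named, and from each list the genes past the threshold (at most 6, by size) or else the 2 with the smallest p; for BAMBI and THBS1 also the 5 nearest genes. PMEPA1, CCN2, ID4 and THBS2 were added after their values were seen. Alternatives were quantile normalization, centring on the array median or on the poly-A spike-ins, a pseudocount of 16, filters at the 30th percentile and the median, other probe set summaries, eBayes without a trend or robust, a replicate block, and the omission of each array in turn. Sequences are from RefSeq (GRCh38.p14). Figures were drawn with matplotlib 3.10.9.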

Additional observations from a re-analysis of the deposited data

How the results depend on the processing

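The 10 genes were recomputed under 15 alternatives, fewer for SKIL (13), SMAD7 and TGFBR2 (14 each), which a filter on level removed. BAMBI ran from 0.82 to 0.99 and THBS1 from 0.31 to 0.54 on the log2 scale, both above 0 throughout, and the 8 others from -0.29 to 0.13. Several alternatives cannot change a log2 fold change. These are the filters, the fit of every probe set, eBayes without a trend or robust, and the replicate block. For BAMBI the mean of all probe sets is fixed as well, since it has a single one. Where every probe set was tested, the counts that follow are of probe sets and not of genes. All genes higher numbered 127 as reported, 60 centred on the poly-A spike-ins, 213 at or above the median level, 18 by eBayes without a trend and 28 to 40 with an array left out. All genes lower numbered 34 as reported, 69 after quantile normalization, 326 against the spike-ins, 57 above the 30th percentile, 84 above the median, 9 with every probe set tested, 3 without a trend and 4 to 7 with an array left out. Pathway genes higher numbered 3 as reported, 1 against the spike-ins, 10 with every probe set tested (counted as probe sets, 6 of them of FN1), 1 without a trend and 1 to 2 with an array left out. Pathway genes lower numbered 1 as reported, 2 against the spike-ins, and 0 by limma with the mean of all probe sets (6 at an unadjusted p under 0.05), without a trend (10) and with any array left out (4 to 13). Those last fits take the spread of the single remaining array from the other group.

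The replicate numbers are not explained in the labels, and same-numbered arrays did not deviate together (r = -0.04 across 18132 genes, which are not independent replicates). A limma fit with the number as a block, which leaves 1 residual degree of freedom, called 2 genes higher and 0 lower (948 and 790 at an unadjusted p under 0.05) and 0 pathway genes either way (15 higher and 4 lower unadjusted). The log2 fold changes of the 10 genes are the same in that fit by construction, but neither BAMBI nor THBS1, the 2 members counted as past the threshold, was past it there. THBS1 was also not past it as the mean of its probe sets, with every probe set tested, without a trend or with any array left out. With 2 arrays a group and no detection calls, small differences in dim probe sets, such as those of SKIL and TGFBR2, are not resolved.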
